A study of Mus musculus with 168 samples.

Results

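The 10 genes described here encode the complement proteins C1qa, C1qb, C1qc, C3 and C4b and the microglial proteins Aif1, Cx3cr1, Csf1r, Tyrobp and Trem2. They were taken by name, 10 rows of 39410 in the deposited table of RPKM (reads mapped to a gene, scaled to transcript length and to the library's mapped reads), and each was found once. Neurons were cut by laser from frozen mouse brain and lumbar spinal cord, with about 150 cells to a tube, and polyadenylated RNA was sequenced with Smart-seq2 and Tn5 tagmentation. The populations were ocular motor neurons (oculomotor and trochlear nuclei), facial, vagus, hypoglossal and lumbar spinal motor neurons, and neurons of the red nucleus, a midbrain population that holds no motor neurons. The 168 libraries came from 34 mice at postnatal day 2, 5 or 10. They gave 160 samples, each 1 population of 1 mouse, in 36 groups of 3 to 7 mice. The mice labelled SMA (19 mice) lacked mouse Smn and carried the human transgenes SMN2+/+ and SMN∆7+/+, the delta7 model of spinal muscular atrophy. The controls (15 littermates) were Smn+/+ and carried the same human transgenes. Both the loss of Smn and the transgenes are present in all cells of the animal, so a difference cannot be assigned to the neurons or to the cells around them. Of the 160 samples, 72 were control and 88 were SMA.

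C1q, assembled from C1qa, C1qb and C1qc chains, starts the classical complement pathway, in which C4 and then C3 are cleaved and C3 fragments are left on the surfaces marked for removal. In the developing nervous system microglia make most C1q, and they clear tagged synapses through complement receptors. C1q is also known for a part in the early removal of sensory synapses from motor neurons in SMA models. Csf1r and Cx3cr1 are microglial receptors for colony stimulating factor 1 and fractalkine, Aif1 (IBA1) is an actin-binding protein used as a microglial stain, and Tyrobp (DAP12) is the signalling adaptor of the lipid-sensing receptor Trem2. These genes are therefore read here as RNA lying in or beside the cut neurons, and fewer cells of a type cannot be told apart from less RNA per cell.

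In the mm10 build with GENCODE M21 annotation the C1q genes lie side by side on the minus strand of chromosome 4, C1qb at chr4:136880129-136886187, C1qc at chr4:136889804-136893065 and C1qa at chr4:136895917-136898803. Trem2 lies on the plus strand at chr17:48346401-48354147 and Aif1 on the minus strand at chr17:35170991-35176068. Promoters (250 bases before to 50 bases after the start, RefSeq, GRCm38.p6) were matched for 6 of the 10 genes. The 4 below are shown because C1qb and C1qc, neighbours on the chromosome, are the C1q chains with the most RNA, and because Trem2 and Aif1 shared a high level in the vagus samples. Capitals mark GAGGAA, or TTCCTC where it is on the other strand, the letters at the core of sites bound by the myeloid factor PU.1 (Spi1).
C1qb (chr4:136886151-136886450, minus strand): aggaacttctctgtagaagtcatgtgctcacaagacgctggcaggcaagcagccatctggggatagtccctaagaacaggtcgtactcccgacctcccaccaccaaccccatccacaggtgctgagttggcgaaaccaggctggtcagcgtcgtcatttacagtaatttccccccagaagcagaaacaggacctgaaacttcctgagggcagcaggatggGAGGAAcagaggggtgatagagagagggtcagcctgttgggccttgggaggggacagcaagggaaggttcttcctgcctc
C1qc (chr4:136892865-136893164, minus strand): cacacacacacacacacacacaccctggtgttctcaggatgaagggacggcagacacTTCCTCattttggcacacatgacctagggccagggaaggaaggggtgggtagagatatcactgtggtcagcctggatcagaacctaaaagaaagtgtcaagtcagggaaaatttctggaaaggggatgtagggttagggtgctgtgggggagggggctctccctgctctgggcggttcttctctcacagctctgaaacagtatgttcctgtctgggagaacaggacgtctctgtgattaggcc
Trem2 (chr17:48346151-48346450, plus strand): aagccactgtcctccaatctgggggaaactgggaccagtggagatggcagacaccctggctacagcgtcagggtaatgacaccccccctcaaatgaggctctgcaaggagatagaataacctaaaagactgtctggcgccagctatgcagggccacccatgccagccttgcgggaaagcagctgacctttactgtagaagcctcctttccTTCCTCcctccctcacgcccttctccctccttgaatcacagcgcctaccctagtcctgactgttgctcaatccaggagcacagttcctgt
Aif1 (chr17:35176003-35176302, minus strand): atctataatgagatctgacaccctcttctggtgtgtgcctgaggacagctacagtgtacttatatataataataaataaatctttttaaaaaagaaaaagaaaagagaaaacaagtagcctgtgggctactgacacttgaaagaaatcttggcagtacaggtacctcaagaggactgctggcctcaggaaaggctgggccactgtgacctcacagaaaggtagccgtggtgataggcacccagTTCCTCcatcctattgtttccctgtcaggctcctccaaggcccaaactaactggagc
Each of the 4 held 1 match, and the promoters of C3 and Cx3cr1 held none. The letters begin 30 bases before the start of C1qb, 40 before Trem2 and 7 before Aif1, and farther upstream in C1qc. They stand in 9289 of the 32851 promoters of that table (28.3%), so a match is a description of the window and not a bound site.

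Depth was recovered from the steps between low values and ran from 0.342 to 16.3 M (mega) reads per library, with a median of 5.89 M and with 12121 to 18419 genes above 0. Smn1, the gene removed in the SMA mice, was at 4.32 to 63.3 RPKM in the control samples (median 22.8, n = 72). In the SMA samples it was at 0 to 4.24 RPKM and at 0 in 70 of 88, so the highest SMA sample lay just below the lowest control and the genotypes did not overlap. The summed RPKM of the motor neuron markers had a median of 939 to 1799 in the 5 motor populations and 57.7 in the red nucleus. The 26 microglia markers ran from genes above 0 in all samples (Lgmn and Sparc among them) to Cd33, at 0 in 141 of 160, with Tmem119 at 0 in 85 and P2ry12 in 42. The 12 markers of border macrophages and blood monocytes were each at 0 in 99 samples (Mrc1) or more.

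The members were low, and the values whose reads could be counted rest on few reads. At the median depth 3 reads are worth 0.489 RPKM for C1qa, 0.468 for C1qb, 0.423 for C1qc and 0.903 for Tyrobp, and such floors cover counting error only. The values of C1qa, C1qb and Tyrobp were whole reads (within 0.003 reads) in every library above 0, and those of C1qc in all but 1 library, with medians of 11, 22, 16 and 11 reads. By the same tolerance, for C3 68.0% of the values above 0 were whole reads over a 315-base transcript and 11.1% over the full-length 5136-base transcript. The C3 values therefore rest mostly on reads that fell in 4 short blocks of the gene (chr17:57204007-57222827), and its RPKM cannot be read as the level of the full-length messenger. The C3 values that were whole reads over the 315-base transcript had a median of 7 reads, and in 19 libraries they were 1 to 3 reads. For Trem2 at most 9.62% of the values above 0 were whole reads over any 1 annotated transcript. That share was at most 5.23% for Aif1, 4.41% for Csf1r and 0.847% for Cx3cr1. The reads behind most values of these genes are therefore not known. C4b has a near-identical neighbour, C4a, and reads could be split between them, so C4b is uncertain. Strand was not marked in the libraries, and the span of Cx3cr1 covers 9 other annotated genes, among them Wdr48 and Csrnp1.

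Averaged over all 160 samples, Aif1 was the most abundant of the 10 per length at 10.6 RPKM and was above 0 in all but 14 samples. Tyrobp followed at 5.04 RPKM, C3 at 4.54, Trem2 at 3.91 and C1qb at 3.43. C1qc was at 2.14 RPKM, C1qa at 1.28, Csf1r at 0.795, Cx3cr1 at 0.485 and C4b, above 0 in 55 samples, at 0.457. The 3 C1q genes summed to 6.85 RPKM on average, and all 3 were at 0 in 20 samples. All of C1qa, C1qb, C1qc, Cx3cr1, Csf1r and Tyrobp were above 0 in 49 of 160 samples and none in 6. In the red nucleus that held for 1 of 23 samples.

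In control mice the summed level of C1qa, C1qb and C1qc was 10.1 ± 13.2 RPKM in the facial samples (SD, n = 13) and 9.23 ± 7.89 in the vagus samples (SD, n = 11). It was 6.77 ± 5.31 in the ocular (SD, n = 12), 5.48 ± 6.98 in the hypoglossal (SD, n = 12), 4.20 ± 4.16 in the lumbar (SD, n = 13) and 3.57 ± 3.20 in the red nucleus samples (SD, n = 11). Each step in this order is smaller than the SD of either neighbour, and the ranges of all 6 populations overlap. C1qb, the most abundant of the chains, ran from 1.87 ± 2.43 RPKM in the lumbar controls (SD, n = 13) to 4.48 ± 5.41 in the ocular controls (SD, n = 12).

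**Figure D1:**
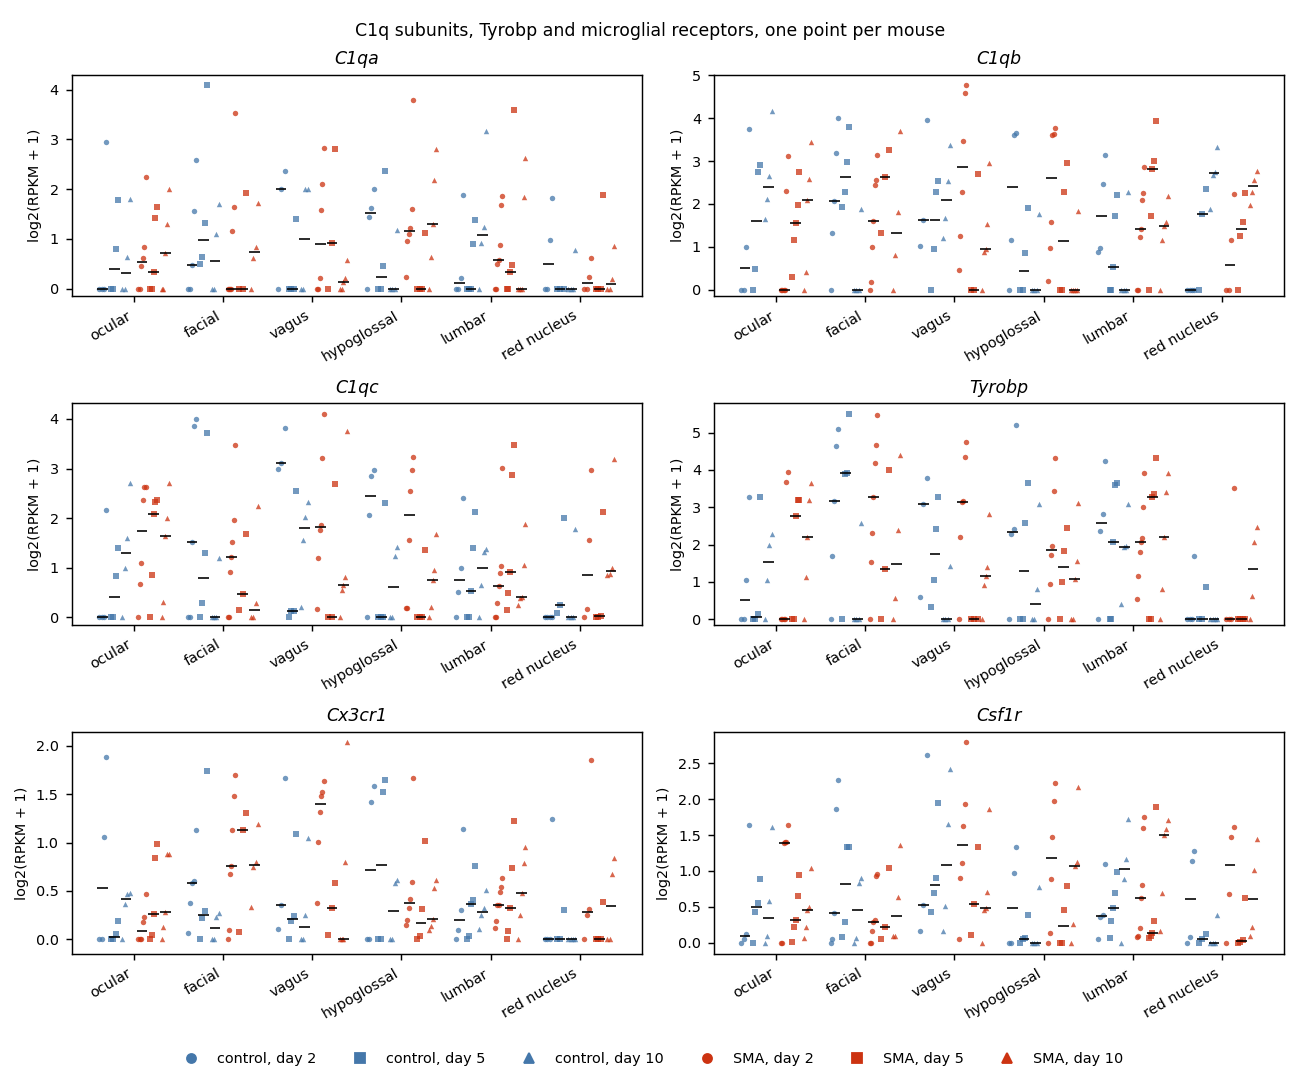
RPKM of C1qa, C1qb, C1qc, Tyrobp, Cx3cr1 and Csf1r in every mouse (1 point each, blue control, red SMA, circle, square and triangle for day 2, 5 and 10; bar, median) by population. The control and SMA points overlap in each population without reaching the same maximum (red nucleus Tyrobp, 2.22 in controls and 10.4 in SMA mice), and many points lie at 0, 73 of 160 for C1qa and 60 of 160 for Tyrobp.

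The question raised by the model is whether C1q RNA near the lumbar motor neurons, a vulnerable population in SMA, is higher in SMA mice. Lumbar C1qb was at 0.838, 0.945, 4.54 and 7.78 RPKM in the 4 controls of day 2 and at 0, 0, 1.35, 1.67, 3.26, 3.78 and 6.26 in the 7 SMA mice. At day 5 the controls were at 0, 0, 0.439, 2.30 and 3.59 RPKM and the SMA mice at 0, 2.30, 6.04, 7.02 and 14.2. At day 10 the controls were at 0, 0, 0 and 3.86 RPKM and the SMA mice at 0, 1.24, 1.78, 1.98 and 3.51. At day 5, 3 of 5 SMA mice were above every control, but the groups overlapped at each age. Per the labels, all 5 lumbar control libraries of day 5 include reads of an earlier deposit. In every lumbar comparison of day 5 this cannot be told apart from the genotype. On the log2(RPKM + 1) scale the SMA minus control difference of C1qb was -0.45, 1.40 and 0.71 at days 2, 5 and 10, and the day 5 value had an SE of 0.67 and a 95% interval of 0.04 to 2.77 (limma, adjusted p = 0.596).

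The other chains of C1q were read in the same samples. Lumbar C1qa at day 5 was at 0, 0, 0, 0.861 and 1.61 RPKM in controls and at 0, 0, 0.253, 0.379 and 11.0 in SMA mice, where 1 mouse stood far above the rest. Lumbar C1qc at day 5 was at 0, 0, 0.447, 1.63 and 3.38 RPKM in controls and at 0.110, 0.414, 0.874, 6.29 and 10.1 in SMA mice. Both genes overlapped between the genotypes, and their differences were 0.42 and 0.77 on the log2 scale, neither past the threshold. Whether the lumbar genotype difference stood apart from that of the other 5 populations was tested directly. The interaction was past the threshold for none of 30 member results (limma, 0 of 30 at an unadjusted p under 0.05 too; the share over all genes was 0.0689%). Its smallest p was for C1qb at day 5, with a difference of 1.46 on the log2 scale (limma, unadjusted p = 0.0894).

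Across all 18 comparisons of SMA with control (6 populations, 3 ages), no member passed an adjusted p of 0.05. Of 51 member results at each age 0 were called by limma, and 7 over the 3 ages had an unadjusted p under 0.05, with a smallest adjusted p of 0.468. The share called over all genes was 0.129%. When the 6 populations were averaged with the mouse as block, 0 of 30 member results were called, and 0 had an unadjusted p under 0.05. Over all genes 1.54% were called at day 2, 0.117% at day 5 and 1.78% at day 10 (1.15% over the 3 ages). The 95% intervals for the C1q genes lay within -0.79 to 0.94 on the log2 scale at every age. The missing calls do not show that the genotypes were alike within those bounds.

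**Figure D2:**
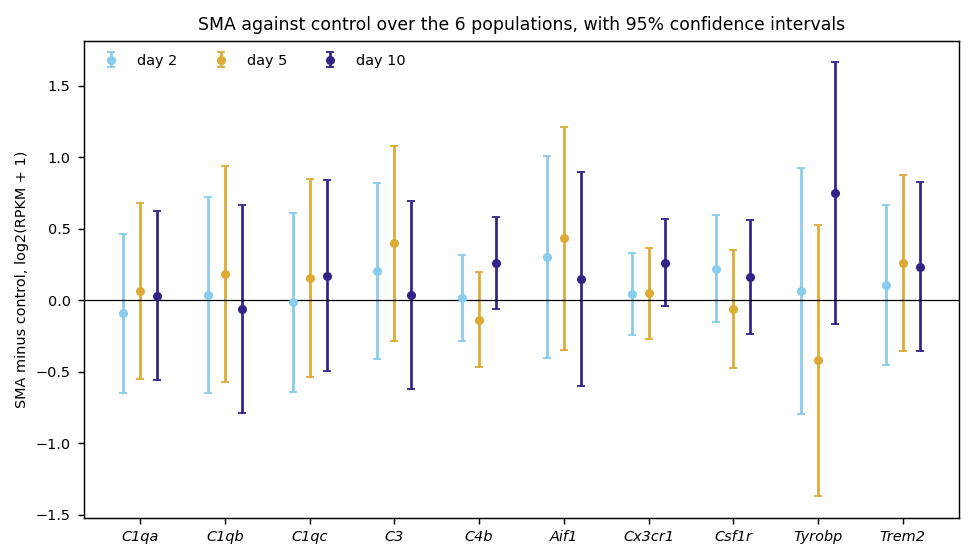
SMA minus control on the log2(RPKM + 1) scale, averaged over the 6 populations, for each of the 10 genes at days 2, 5 and 10 (point, limma estimate; line, 95% interval). All 30 intervals include 0, and the point farthest from 0 is Tyrobp at day 10, at 0.75.

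Among the receptors and the adaptor, Tyrobp had the largest averaged difference, 0.75 at day 10 (95% interval -0.17 to 1.66, limma, adjusted p = 0.606). Cx3cr1 at day 10 differed by 0.26 (limma, adjusted p = 0.577). The medians of the 10 members were 0.055, 0.110 and 0.168 at days 2, 5 and 10, beside 0.037, 0.040 and 0.051 for all genes tested. In single populations 3 of the member comparisons (51 at each age) had groups that did not overlap, which holds for 3.06% of results over all genes tested. They were chosen here after their values were seen. Facial Cx3cr1 at day 10 was at 0 to 0.208 RPKM in controls and at 0.258 to 1.29 in SMA mice (difference 0.64, limma, adjusted p = 0.805), and 5.5% of all genes tested in that comparison had groups that did not overlap. Vagus Trem2 at day 5 was at 6.61 to 13.4 RPKM in controls and at 16.6 to 25.5 in SMA mice (difference 0.81, limma, adjusted p = 0.958), where the share over all genes was 5.73%. Vagus Tyrobp at day 5 was at 0.258 to 8.71 RPKM in controls and at 0 in all 3 SMA mice, the opposite direction to its receptor Trem2 in the same mice (limma, adjusted p = 0.920). None of these passed the threshold over all genes.

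C3, the protein on which the complement pathways converge, gave 3 of the 7 results with an unadjusted p under 0.05. In facial samples of day 2 it was at 0, 0.103, 0.877, 0.987 and 2.48 RPKM in controls. The SMA mice were at 0.0566, 2.54, 2.74, 2.94, 5.42, 6.62 and 7.44 RPKM. Where C3 values under 1 RPKM fall on the 315-base transcript, they rest on few reads. All but 1 of the SMA mice were above every control, and the difference was 1.30 on the log2 scale (SE 0.54, limma, adjusted p = 0.468). At day 10 the facial controls were at 0, 0, 0 and 3.76 RPKM and the SMA mice at 0, 3.43, 5.45 and 9.81, a difference of 1.50 (limma, adjusted p = 0.529). In the red nucleus at day 10 the order was the other way, with controls at 2.53, 7.23, 17.6 and 37.2 RPKM and SMA mice at 0, 3.08, 3.24 and 8.09, a difference of -1.76 (limma, adjusted p = 0.745). The remaining 4 were Trem2 in the facial and vagus samples at day 10 (1.59 and 1.20) and in the hypoglossal samples at day 2 (1.71), and lumbar C1qb at day 5.

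Populations differed more clearly than genotypes. Each population was compared with the mean of the other 5 in control mice, and 12 of 60 member results passed the threshold. Over all genes 16.8% of results were called (16.9% ocular, 9.01% facial, 25.9% vagus, 10.7% hypoglossal, 17.4% lumbar and 20.8% red nucleus), so the members' share was close to that of all genes. The calls fell on different genes in different populations: Trem2, Aif1, Csf1r and C1qc were higher in the vagus samples, C3 was higher in the ocular and red nucleus samples and lower in the facial ones, and C4b was higher in the hypoglossal samples. Trem2 was lower in the ocular and red nucleus samples, Aif1 in the lumbar and Tyrobp in the red nucleus samples. In SMA mice, a comparison added after the control values were seen, 9 of 60 results were called (17.8% over all genes), and 7 were shared, 7 of the 12 in controls and 7 of the 9 in SMA mice.

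**Figure D3:**
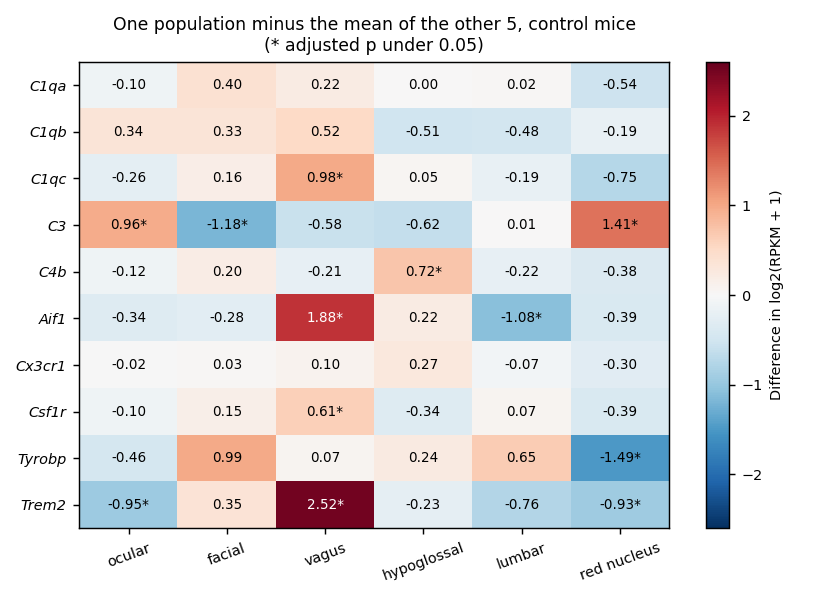
Difference of each population from the mean of the other 5 in control mice for the 10 genes, in log2(RPKM + 1) units by colour, with an asterisk where the adjusted p was under 0.05 (limma). The strongest cell is Trem2 in the vagus samples at 2.52, and 12 of 60 cells carry an asterisk.

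On the log2 scale Trem2 showed the widest spread between populations among the 10 genes, from -0.95 to 2.52. In the vagus controls it was at 3.48, 7.25 and 8.93 RPKM at day 2, at 6.61, 12.9, 13.3 and 13.4 at day 5 and at 4.29, 7.29, 18.4 and 19.5 at day 10. No vagus control was near 0, and Trem2 was above 0 in 25 of 25 vagus samples. The control means were 10.5 ± 5.40 RPKM in the vagus (SD, n = 11), 3.98 ± 5.49 in the facial (SD, n = 13), 2.22 ± 3.92 in the hypoglossal (SD, n = 12) and 1.29 ± 3.58 in the red nucleus samples (SD, n = 11). They were 0.781 ± 1.43 RPKM in the lumbar (SD, n = 13) and 0.477 ± 0.737 in the ocular samples (SD, n = 12). Apart from the vagus, neighbours in that order differed by less than their SD. The vagus was 2.52 above the mean of the other populations on the log2 scale (SE 0.32, limma, adjusted p = 5.75e-11). Trem2 was lower in the ocular (-0.95, limma, adjusted p = 0.0204) and red nucleus samples (-0.93, limma, adjusted p = 0.0278). The ocular call was lost without control mouse 71 (limma, adjusted p = 0.0507) or with a pseudocount of 0.1 RPKM (0.0734), and the red nucleus call without any of 6 control mice (26, 28, 30, 34, 244 or 252), up to an adjusted p of 0.0942.

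The comparison within animals, over control and SMA mice together, gave the same order for the vagus. Trem2 was higher in the vagus than in the ocular sample of the same mouse in 22 of 22 mice, than in the lumbar sample in 22 of 22 and than in the red nucleus sample in 19 of 19. It was higher than in the hypoglossal sample in 21 of 24 mice and than in the facial sample in 17 of 23. In SMA mice vagus Trem2 was 3.13 above the other populations (limma, adjusted p = 1.92e-17).

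Trem2 signals through Tyrobp, but the population with the highest Trem2 was not the one with the highest Tyrobp. Tyrobp was at 3.33 ± 4.39 RPKM in the vagus controls (SD, n = 11), below the 11.2 ± 14.5 of the facial controls (SD, n = 13), and no vagus difference was called for it. In 8 of 25 vagus samples Trem2 was above 0 while Tyrobp was at 0, and in 6 of these Trem2 was over 5 RPKM. Trem2 above 0 with Tyrobp at 0 was also seen in 7 of 27 facial, 5 of 27 hypoglossal, 4 of 28 ocular, 2 of 23 red nucleus and 0 of 30 lumbar samples. No sample of those 5 populations had Trem2 over 5 RPKM with Tyrobp at 0, but mean Trem2 was lower in each of them. In the red nucleus Tyrobp was lower, at 0.277 ± 0.691 RPKM in controls (SD, n = 11) and -1.49 on the log2 scale (limma, adjusted p = 0.0227), a call lost without control mouse 30 (limma, adjusted p = 0.0512). In SMA mice the difference was -1.07 and was not called (limma, adjusted p = 0.108).

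Aif1 followed the vagus pattern of Trem2. It was at 22.6 ± 13.1 RPKM in the vagus controls (SD, n = 11), against 9.21 ± 13.4 in the facial (SD, n = 13), 8.49 ± 4.96 in the hypoglossal (SD, n = 12), 8.31 ± 9.61 in the red nucleus (SD, n = 11), 6.39 ± 4.77 in the ocular (SD, n = 12) and 3.64 ± 3.13 in the lumbar samples (SD, n = 13). The vagus was 1.88 above the others (SE 0.41, limma, adjusted p = 0.000108). Over control and SMA mice together it held the highest Aif1 value of the animal in 21 of 25 mice. The lumbar samples were lower, with a difference of -1.08 (limma, adjusted p = 0.0360) that was lost without any of 8 control mice (14, 28, 29, 34, 240, 252, 253 or 254), up to an adjusted p of 0.141, with a pseudocount of 0.1 RPKM (0.106) or with each library as a sample (0.0503). In SMA mice the vagus difference was 1.69 and the lumbar one -1.33, both called (limma, adjusted p = 0.000138 and 0.0015).

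Csf1r and C1qc also were higher in the vagus controls, by smaller and less stable amounts. Csf1r differed by 0.61 (limma, adjusted p = 0.0282) and C1qc by 0.98 (limma, adjusted p = 0.0375). The Csf1r call was lost without control mouse 29, 240, 252 or 253, up to an adjusted p of 0.221, and the C1qc call without any of 8 control mice (26, 29, 34, 75, 244, 247, 253 or 254), up to 0.125, with a pseudocount of 0.1 RPKM (0.0511) or with no filter on low values (0.0519). In SMA mice the corresponding differences were 0.27 and 0.28 and were not called, and whether the genotypes differ in this was not tested. Microglia markers are given beside these values. The other 24 were summed without the 2 most abundant, Lgmn and Sparc. Over control and SMA samples together their median was 36.2 RPKM in the vagus, 36.4 in the facial, 37.7 in the hypoglossal, 24.0 in the red nucleus, 23.4 in the lumbar and 22.4 in the ocular samples. In controls alone the means were 39.6, 49.6, 39.7, 21.4, 25.7 and 26.4 RPKM in the same order. Of 25 microglia markers tested, 2 were higher and 1 lower in the vagus controls, where 14.7% of all genes were higher and 11.2% lower. Their part in the Trem2 and Aif1 levels was not tested.

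**Figure D4:**
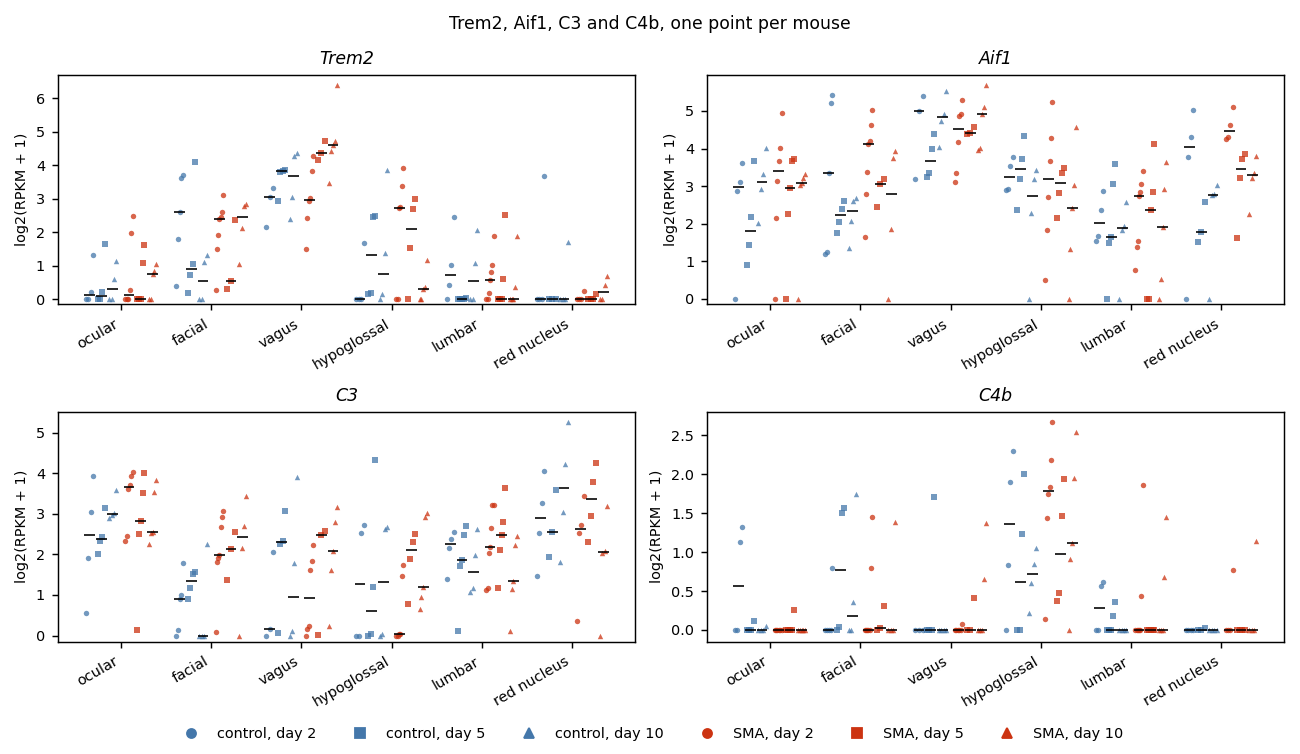
RPKM of Trem2, Aif1, C3 and C4b in every mouse by population (blue control, red SMA; circle, square and triangle for day 2, 5 and 10; bar, median). The vagus points of Trem2 and Aif1 sit above those of most other samples, the single Trem2 point at 82.4 being SMA mouse 249 of day 10, and C4b is above 0 in 23 of 27 hypoglossal samples.

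C3 had a distribution of its own. In controls it was at 10.4 ± 10.3 RPKM in the red nucleus (SD, n = 11), 6.29 ± 3.75 in the ocular (SD, n = 12), 3.44 ± 5.48 in the hypoglossal (SD, n = 12), 3.20 ± 4.32 in the vagus (SD, n = 11), 3.05 ± 1.73 in the lumbar (SD, n = 13) and 1.09 ± 1.16 in the facial samples (SD, n = 13). It was higher in the red nucleus by 1.41 (limma, adjusted p = 0.00134) and in the ocular samples by 0.96 (limma, adjusted p = 0.0406). It was lower in the facial samples, a difference of -1.18 (limma, adjusted p = 0.00987). The ocular call was lost without control mouse 14, 28, 29, 71, 252, 253 or 254, up to an adjusted p of 0.143, or with no filter on low values (0.0547). The facial and red nucleus calls were past the threshold with any 1 mouse left out. In SMA mice the ocular difference was 1.06 (limma, adjusted p = 0.00684), while the facial and red nucleus differences were -0.03 and 0.47 and were not called. Given that the C3 values rest mostly on 4 short blocks of the gene, these differences apply to that signal, and the low facial values rest on few reads.

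C4b, which acts between C1q and C3 in the classical pathway, was above 0 in 23 of 27 hypoglossal samples and in 3 to 11 samples of each other population. In hypoglossal controls it was at 0, 0.782, 2.73 and 3.90 RPKM at day 2, at 0, 0, 1.36 and 3.02 at day 5, and at 0.167, 0.514, 0.792 and 1.08 at day 10. The ages overlapped. Controls of the other populations reached 2.34 RPKM in the facial, 2.25 in the vagus, 1.51 in the ocular, 0.534 in the lumbar and 0.0208 in the red nucleus samples, so 3 of the 12 hypoglossal values were above all of them. The difference from the other populations was 0.72 in controls (SE 0.17, limma, adjusted p = 0.000883) and 1.17 in SMA mice (limma, adjusted p = 3.31e-10). Its paralog C4a differed by 0.39 in controls (limma, adjusted p = 0.473) and by -0.06 in SMA mice.

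With age, of 51 member results in each genotype, 2 passed the threshold between day 2 and day 10, both rises, where 7.22% of results were called over all genes. C1qb in the red nucleus controls was at 0 in all 4 mice of day 2, at 0, 2.42 and 4.11 RPKM at day 5 and at 2.70, 5.38, 5.76 and 9.03 at day 10. The day 2 and day 10 groups did not overlap, and the share of all genes with such groups was not computed for this comparison. The fitted difference was 2.66 (SE 0.55, limma, adjusted p = 0.00235, 11.1% of all genes called in that comparison), and it depends on the added 1 RPKM because day 2 was at 0. In SMA mice C1qb was at 0, 0, 1.25 and 3.73 RPKM at day 2, at 0, 1.40, 1.97 and 3.78 at day 5 and at 2.90, 3.83, 4.85 and 5.77 at day 10. That difference was 1.53 (limma, adjusted p = 0.114), and the difference between genotypes was -1.13 (95% interval -2.73 to 0.47, limma, adjusted p = 0.818). The other chains did not follow: C1qa in the red nucleus controls reached 0.705 RPKM at day 10, and C1qc was above 0 in 1 of 4 mice.

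Trem2 in the vagus of SMA mice was the other rise. It was at 1.81, 4.40, 6.57, 7.05, 13.1 and 18.3 RPKM at day 2, at 16.6, 19.5 and 25.5 at day 5 and at 10.1, 20.6, 23.3, 25.2 and 82.4 at day 10. The groups of day 2 and day 10 overlapped, and the highest value belonged to mouse 249. The difference was 1.73 (SE 0.47, 95% interval 0.76 to 2.70, limma, adjusted p = 0.0406, 3.31% of all genes called), and it was lost without any of 8 SMA mice (16, 18, 199, 207, 209, 249, 250 or 258), at adjusted p values of 0.0675 to 0.144, with no filter on low values (0.0802) or in a fit of only the groups compared (0.127). In controls the difference was 0.68 (limma, adjusted p = 0.683), and the difference between genotypes, 1.05, was not called (limma, adjusted p = 0.899). Of 51 member results on such genotype differences 0 were called by limma and 1 had an unadjusted p under 0.05, Trem2 in the hypoglossal samples at -2.69 (adjusted p = 0.639), with 0.0415% called over all genes.

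Within groups C1qa, C1qb, C1qc, Csf1r, Cx3cr1 and Tyrobp moved together in part across samples, and Aif1 did so less. Deviations from the 36 group means of log2(RPKM + 1) were correlated over 160 samples, which share mice and libraries of unequal depth, so the values are descriptions. Csf1r was the gene most like the mean of C1qa, C1qb and C1qc among 22270 genes, with r = 0.593. The next were Ctss (0.592), P2ry12 (0.500), Fcer1g (0.475), Cx3cr1 (0.465), Ly86 (0.458), Laptm5 (0.440), Arhgdib (0.413), Tyrobp (0.403), Fcrls (0.397) and Imp4 (0.393). Most of these are genes of microglia, among them the purine receptor P2ry12 and the lysosomal protease Ctss. Trem2 was at 0.376, C4b at 0.281 and Aif1 at 0.199, while C3 was at -0.03. The 15 pairs among C1qa, C1qb, C1qc, Csf1r, Cx3cr1 and Tyrobp had r from 0.134 to 0.465 with a median of 0.357, and with these 6 genes Trem2 had r from 0.156 to 0.395, C4b from 0.0895 to 0.227, Aif1 from 0.0529 to 0.194 and C3 from -0.133 to 0.028. On the deviations Tyrobp was at rank 2 of 22270 genes in likeness to Trem2. The member most like Aif1 was C1qa, at rank 767 (0.194). In the values as measured, which keep the differences between groups, Tyrobp was at rank 1997 for Trem2 (0.264). There Trem2 and Aif1 were each the member most like the other (0.442).

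**Figure D5:**
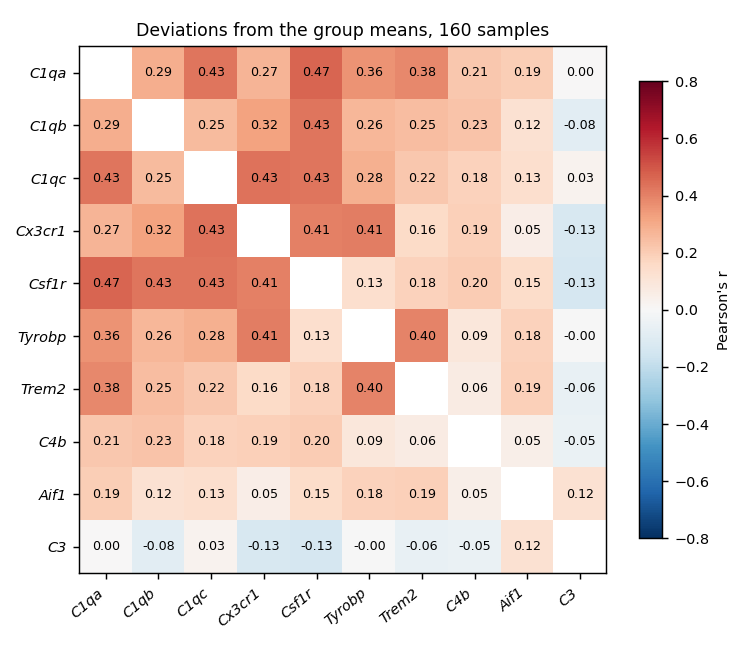
Pearson correlation between the 10 genes over 160 samples, computed on deviations of log2(RPKM + 1) from the 36 group means (colour, r). C1qa, C1qb, C1qc, Csf1r, Cx3cr1 and Tyrobp have r of 0.134 to 0.465 with each other, Trem2 has 0.156 to 0.395 with them, within that range, and C3 has -0.133 to 0.028.

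Genes that act with the members were counted from lists, chosen, as the members were, with earlier results known. Of the complement cascade 11 of 25 listed genes could be tested over all populations, of the receptors 7 of 11, of the regulators 20 of 22 and of the microglia markers 25 of 26. In these 4 lists 0 genes were called by limma for SMA against control, by population or over all. The medians of their differences over the 3 ages ran from -0.01 to 0.08 for the cascade, -0.12 to 0.01 for the receptors, 0.02 to 0.10 for the regulators and 0.06 to 0.07 for the microglia markers, beside 0.037 to 0.051 for all genes. The most abundant were Cfp (properdin, 9.03 RPKM), C8g (7.11) and Colec11 (1.89) of the cascade, and Calr (203.7), Lrp1 (6.11) and Cd93 (0.674) of the receptors. Among the regulators Sez6l2 was at 506 RPKM, Clu at 266 and Cd59a, which blocks the membrane attack complex, at 70.7. Of the 20 regulators tested in controls, 9 were higher and 1 lower in the hypoglossal samples, where 6.97% of all genes were higher and 3.69% lower. In the red nucleus 3 were higher and 9 lower, beside 8.59% and 12.2% of all genes. Microglia markers other than the members included Lgmn (121.5 RPKM) and Sparc (60.2), both of which are expressed by other cells as well.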

How the data were processed

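The authors deposited 1 table of RPKM values per gene and library. Per the submitters' processing notes STAR 2.4.1c was used and the builds named are mm10 and hg19. The annotation and the counting tool are not given in the sources used here. Per the labels, all 5 lumbar control libraries of day 5 include reads of an earlier deposit, and some ocular libraries hold 1 of the 2 nuclei. Libraries of the same mouse and population were averaged, which touched 8 samples.

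Tests used limma 3.58.1 in R 4.3.3 on log2(RPKM + 1), with Benjamini-Hochberg adjustment over all genes of a comparison and a threshold of 0.05. All tests are two-sided. A gene entered when it reached 1 RPKM in as many samples as the smallest group of its population, or in 3 samples for fits over all 160 samples. The 18 comparisons of SMA with control, the 12 of day 10 with day 2 and the 6 genotype differences with age were fitted by population. Comparisons between populations, averages over them and the lumbar difference were fitted over all samples. Mouse numbers in the labels pair the samples of 1 animal, and the mouse was the block in the averaged and lumbar comparisons (consensus correlation 0.0366). Mice are separate animals. Reads per library were estimated from the steps between low values of genes with a single GENCODE M21 transcript, of which 69.9% to 82.1% of low values were whole reads within 0.05 reads. The limma method, not the estimate of reads, was tested on simulated data. Whether it would find a change in genes as low and as often at 0 as most members was not tested.

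Alternatives were a pseudocount of 0.1 RPKM, no filter, quantile normalization, each library as a sample, fits of only the groups compared, the block added or dropped, and each mouse left out in turn. The population comparison in SMA mice was added after seeing the data. The members and the lists (complement cascade, receptors, regulators, ligands and partners, and cell type markers) were chosen with earlier results of these data known. Named beside the members and Smn1 are the 3 most abundant genes of the complement, partner and microglia lists, list genes called between genotypes, the 8 genes outside the members most like C1q, and a few markers and ligands chosen after their values were seen. A gene that this rule would name is not reported here. Coordinates are 1-based.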

Additional observations from a re-analysis of the deposited data

Results flagged for a closer look

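Single mice stood far from the rest of their group in 26 combinations of gene and group, among those with at most 1 mouse at 0, where a gap larger than Dixon's limit is found by chance in about 1 in 20 groups. The 26 values fell in 20 samples and are given in RPKM. The facial sample of control mouse 29 at day 5 stood out for 4 genes: C1qa was at 16.1 (the other 3 mice at 0.399 to 1.50), C1qc at 12.1, Cx3cr1 at 2.33 and Trem2 at 16.2 (others 0.138 to 1.09). The vagus sample of the same mouse was high for C1qc at 4.81 (others 0 to 0.0996) and low for Trem2 at 6.61 (others 12.9 to 13.4). The vagus sample of SMA mouse 249 at day 10 held Trem2 at 82.4 (others 10.1 to 25.2) and Tyrobp at 6.04. That mouse also had C1qc at 8.09 in the red nucleus and was at 0 for Aif1 in the ocular sample (others at 7.11 or more). The vagus sample of SMA mouse 199 at day 10 held C1qc at 12.6 (others 0 to 0.769) and Csf1r at 2.64, and that of SMA mouse 250 held C1qb at 6.80.

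The other values were each alone in their sample. C1qa was at 12.8 in the hypoglossal sample of SMA mouse 206 (day 2) and at 8.005 in the lumbar sample of control mouse 252 (day 10). C3 was at 19.0 in the hypoglossal sample of control mouse 75 (day 5) and at 11.1 in the ocular sample of control mouse 254 (day 10). Cx3cr1 was at 1.12 in the vagus sample of control mouse 30 (day 5), at 2.18 in the hypoglossal sample of SMA mouse 207 (day 2) and at 2.63 in the red nucleus sample of SMA mouse 206 (day 2). Csf1r was at 0.302 in the hypoglossal sample of control mouse 71 (day 5), at 2.11 in the ocular sample of control mouse 14 (day 2), at 0.547 in the red nucleus sample of SMA mouse 77 (day 5) and at 2.72 in the lumbar sample of SMA mouse 46 (day 5). Tyrobp was at 36.2 in the hypoglossal sample of control mouse 240 (day 2), and Trem2 at 13.4 in that of control mouse 253 (day 10). Over all 307 combinations of 4 or more mice, including those with more mice at 0, the count was 89.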

How the results depend on the processing

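The number of member calls between day 2 and day 10 was 2, and 1 with no filter on low values and 1 in a fit of only the groups compared, where vagus Trem2 in SMA mice was lost. With each of 34 mice left out in turn it ran from 1 to 3. The calls between populations in controls, 12, ran from 8 to 12 with a mouse left out, and were 9 with a pseudocount of 0.1 RPKM, 10 with no filter, 12 with quantile normalization, 11 with each library as a sample and 12 with the mouse as replicate block. For SMA against control, by population or averaged, for the lumbar difference and for the genotype difference with age, the count was 0 in each alternative run and with any mouse left out. The same 0 held without the replicate block for the averaged and the lumbar comparisons. The fits of a single population hold each mouse once, so no block could be added there. Among single genes 56 values were no longer past the threshold, 7639 were as before and 0 changed direction when called. Quantile normalization moved the largest median over all genes in a comparison of SMA with control from 0.13 to 0.02. Depth limits the low genes: 3 reads at the median depth are 0.489 RPKM for C1qa and 0.903 for Tyrobp, and 24 libraries hold C1qa on 1 to 3 reads. Whether mice of a group were reared or processed together is not given in the sources used here.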

Other observations

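A list of ligands, signalling partners and further clearance genes, and markers of other cells, were read in the same fits. Cx3cl1, the ligand of Cx3cr1, was at 45.1 RPKM over all samples, and the Csf1r ligands Csf1 and Il34 were at 4.40 and 0.782. Apoe, a Trem2 ligand, was at 210.3 RPKM, the integrin-associated protein Cd47 at 85.6 and Gas6, the ligand of the clearance receptor Axl, at 69.8. Averaged over the populations at day 10, Axl was higher in SMA mice by 0.92 on the log2(RPKM + 1) scale (limma, adjusted p = 0.00186) and the purine receptor P2ry6 by 0.79 (limma, adjusted p = 0.0271), 2 of 18 genes of that list tested. At day 10 1.78% of all genes were called, and at day 5 0.117%. Of 15 activated microglia genes 2, Axl and the cytokine Il1b, were higher at day 10. Il1b differed by 0.52 (limma, adjusted p = 0.0181) and was above 0 in 1 of 24 control and 11 of 28 SMA samples of day 10. These samples came from 4 control and 5 SMA mice, so they are not separate replicates. In the SMA mice of day 10 Il1b was at 0 in every vagus and red nucleus sample. In 1 vagus control of day 2 it was at 4.42 RPKM. Of 14 astrocyte genes 1, Gfap, an intermediate filament of astrocytes, was called: it was higher by 1.12 at day 5 (limma, adjusted p = 0.0114) and by 0.94 at day 10 (limma, adjusted p = 0.00514). The remaining lists had 0 calls by limma in these averages. They were for border macrophages and monocytes, oligodendrocytes, vessels, red blood cells, motor neurons, red nucleus neurons and sex-linked genes. The medians of SMA minus control for the sex-linked list ran from -1.10 to -0.31 over the ages. For all genes they ran from 0.037 to 0.051. Whether the sexes were balanced between the genotypes was not tested.

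In single populations the list calls for SMA against control were Axl (2.06, limma, adjusted p = 0.0400) and Gfap (2.81, limma, adjusted p = 0.00742) in the facial samples of day 10, and Mbp, a myelin gene, in the red nucleus samples of day 2 (2.22, limma, adjusted p = 0.0351). Facial Axl was at 0.0910 to 1.21 RPKM in 4 controls and at 2.74 to 7.32 in 4 SMA mice, and Gfap at 0.726 to 3.00 and at 11.6 to 22.8. Neither gene overlapped between the genotypes, but both were picked because they were called. Groups did not overlap for 5.5% of all genes tested in that comparison. The share of all genes called was 0.666% there and 0.0434% in the red nucleus samples of day 2. Several of these calls were lost when 1 mouse was left out. P2ry6 was not called without SMA mouse 196, 250 or 258 or control mouse 252, 253 or 254 (limma, adjusted p up to 0.138). Il1b was not called without SMA mouse 258 or control mouse 247, 253 or 254 (up to 0.127), nor Gfap at day 5 without control mouse 30 (0.0697). Facial Axl was not called without SMA mouse 199, 249 or 258 or control mouse 247, 252 or 253 (up to 0.160). Mbp was not called without SMA mouse 196, 206, 207, 211, 249 or 258 or control mouse 34 or 244 (up to 0.0764). Of these, control mouse 34 (day 5) and SMA mice 196, 249 and 258 (day 10) are not in the groups compared. Without any of them the difference stayed at 2.22. With a pseudocount of 0.1 RPKM, Axl and Il1b averaged over the populations were still called (0.0316 and 0.00518), while Gfap (0.0510 at day 5 and 0.0759 at day 10), P2ry6 (0.0578), facial Axl (0.252), facial Gfap (0.180) and Mbp (0.0852) were not. Facial Axl and Mbp were also not called with no filter on low values or with quantile normalization, nor in a fit of only the groups compared (0.0893 and 0.546).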
